A study of Mus musculus with 2 samples.

Results

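The Reelin signalling genes are 9 genes of the pathway that positions migrating neurons in the cerebral cortex, and they were examined here for binding of the co-activator p300 around them. The members are the ligand Reln, the receptors Vldlr and Lrp8, the cytoplasmic adaptor Dab1, the kinase Fyn, the adaptors Crk and Crkl, the Cdk5 activator Cdk5r1 and the Lis1 gene Pafah1b1. A p300 peak was counted for a member when its midpoint lay inside the gene body or within 500 kb of the transcription start site, taken from the transcript with the longest coding sequence. This gave 37 distinct peaks of the 6629 in the series, or 0.558%, around 9 of 22367 protein-coding genes.

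The peaks came from chromatin immunoprecipitation and sequencing (ChIP-seq) of dorsal cerebral wall from Swiss Webster mouse embryos at E14.5, with an antibody against p300 (C-20). There was 1 p300 library and 1 input library of the same tissue, with no treatment and no mutant allele. The tissue was 0.15 g of material from an unstated number of embryos, with skull, hippocampal primordium, cortical hem and choroid plexus cut away, so the marginal zone, progenitors and neurons were pooled in it. With 1 library of each kind no test compared samples, and each p below compares the number of peaks in a stretch of genome with the number its length predicts.

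p300 is a histone acetyltransferase that is recruited to active enhancers and promoters by transcription factors. In the embryonic cortex, Reelin is secreted by Cajal-Retzius cells of the marginal zone and binds Vldlr and Lrp8 (ApoER2) on migrating neurons. Receptor clustering leads Src family kinases, chiefly Fyn and Src, to phosphorylate Dab1, which then recruits Crk and Crkl and activates the exchange factor Rapgef1 and the small GTPase Rap1. Cdk5 with its activator p35, and Lis1 with the dynein motor, act on the same migration, and Lis1 has also been linked to the pathway through Dab1.

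The list that the authors deposited holds only sites away from promoters. Sites that touched an exon or lay closer than 2.5 kb to an annotated start had been taken out, so promoter binding at the members cannot be read from it. It gives each peak's position and width but no score or read count, so the depth behind a peak is unknown, and a gene without a peak is one without a listed distal peak. All positions are on the mm9 assembly, and genes are those of GENCODE vM1.

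Peaks were unevenly spread over the 9 members. Cdk5r1 had 10 peaks in its window, Dab1 9, Fyn 7, Vldlr 4, Reln, Lrp8 and Crk 2 each, Crkl 1 and Pafah1b1 0. Cdk5r1, Dab1 and Fyn together thus held most of the 37, and no peak fell in more than 1 member's window. The median member had 2 peaks and 0.772 times the number predicted from the length of its window, against medians of 1 peak and 0.402 times over all protein-coding genes. For comparison, the upper quartile of protein-coding genes was 3 peaks, the 95th percentile 8 and the highest 51, and 30.0% had 0.

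Windows were tested with an exact binomial test, one-sided, with p-values adjusted by the Benjamini-Hochberg method over 22367 protein-coding genes, and 1 of 9 members passed an adjusted p of 0.05, Cdk5r1. The same test called 914 protein-coding genes, or 4.09%. Without adjustment, 3 members (Cdk5r1, Dab1 and Fyn) had a p under 0.05, as did 12.6% of protein-coding genes. The test takes all assembled bases as equally open to a peak, at 2.59 peaks per Mb.

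**Figure D1:**
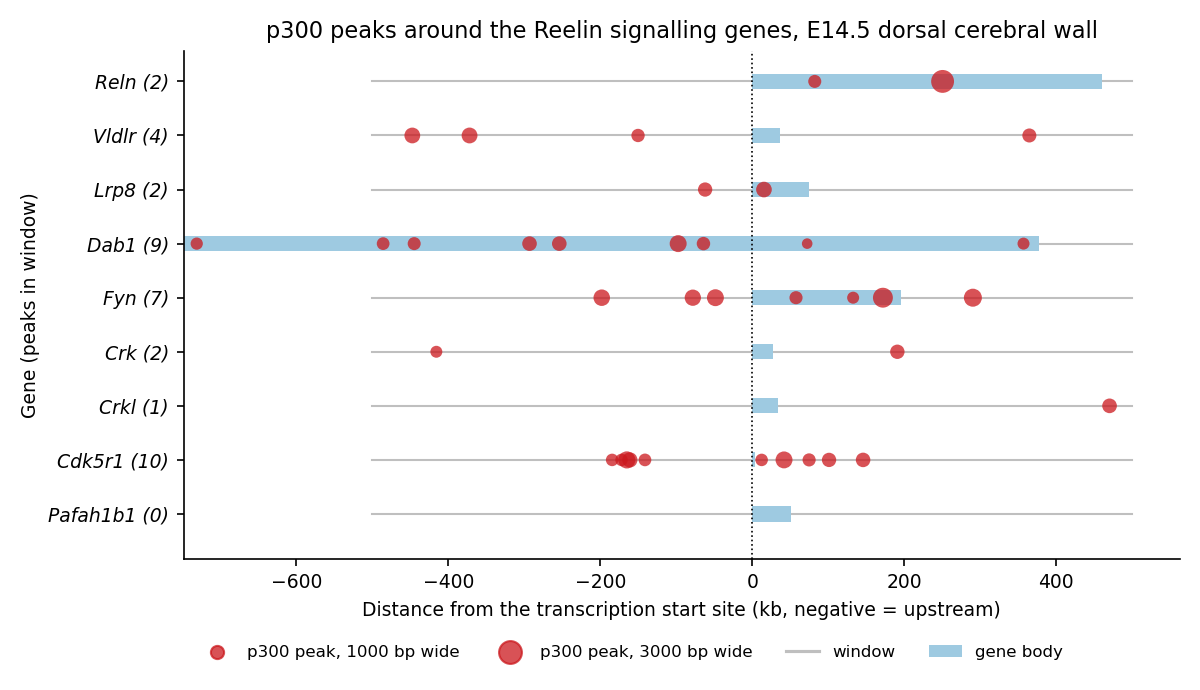
Positions of the 37 p300 peaks around the 9 Reelin signalling genes, as distance from the transcription start site in kb with the direction of transcription to the right. Grey lines are the windows, blue bars the gene bodies and red points the peaks, scaled by width; the 9 Dab1 peaks all lie on its gene body, those of Cdk5r1 lie outside its gene on both sides, and Pafah1b1 has none.

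**Figure D2:**
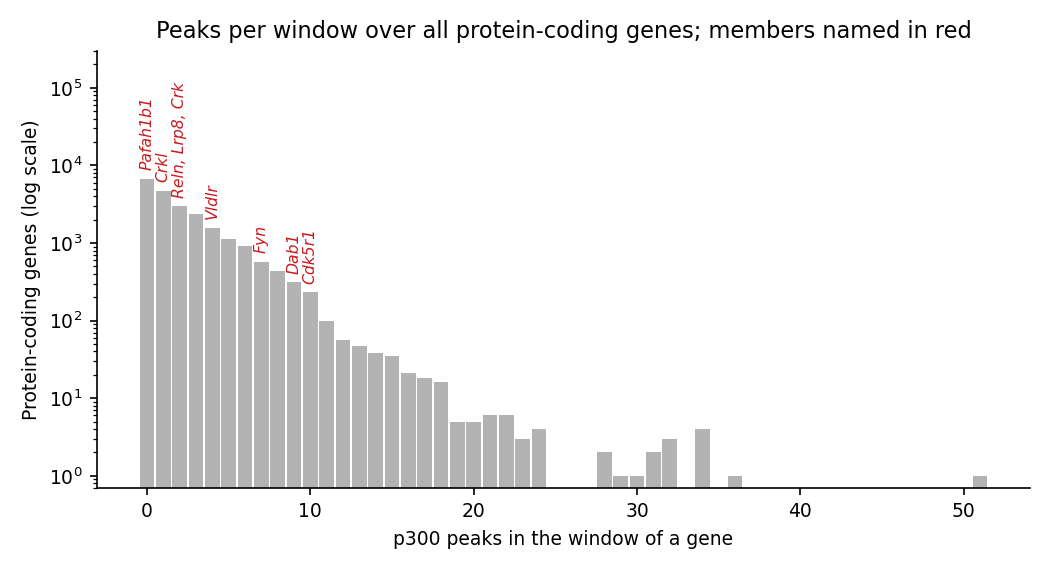
Number of protein-coding genes (log scale) by the number of p300 peaks in their window. The members are written in red above their count; Cdk5r1 with 10 peaks, Dab1 with 9 and Fyn with 7 lie to the right of the other 6 members, which have 0 to 4.

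Inside gene bodies, 4 of 9 members held at least 1 peak, compared with 6.57% of protein-coding genes. Dab1 held 9, Fyn 3, Reln 2 and Lrp8 1, which makes 15 of the 37. These are long genes, and in the test of gene bodies none of the 9 members passed (exact binomial test, one-sided, adjusted over all protein-coding genes), while 49 protein-coding genes, or 0.219%, did. For Cdk5r1, 4.13 kb with 1 exon in the transcript used, this result was all but fixed in advance. Sites at exons and near starts had been taken out of the list, which left its body little room for a peak. At an unadjusted p under 0.05, 2 members (Dab1 and Fyn) and 1.64% of protein-coding genes passed.

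Sequence of the middle 300 bases is printed below for the peak nearest the start site of each member that had a peak other than Lrp8, and for the widest peaks inside the bodies of the members with most peaks there. It was read from the plus strand of mm9, 5′ to 3′. Capitals mark matches, on either strand, to any of 7 short motifs. They are the proneural E-box CAGATG, bound by basic helix-loop-helix factors, the homeodomain core TAATTA, the Sox motif ACAATG, the Nfi motif TTGGCA, the Rfx motif GTTGCC, the T-box motif GGTGTG and the POU motif ATGCAAA. A match describes the letters only and was not tested for binding of a factor.

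Reln encodes the secreted ligand itself. The gene (ENSMUSG00000042453, minus strand, chr5:21390272-21850523) spans 460.3 kb with 65 exons in the transcript used, and its window held 2 peaks where 2.59 were predicted (0.772 times, adjusted p = 1, exact binomial test, one-sided). That is 2 per Mb, with an exact Poisson 95% interval of 0.242 to 7.22 that covers counting error only. At least as many peaks were found at 48.8% of protein-coding genes, so the count around Reln was an ordinary one.

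Both Reln peaks lay inside the gene. Peak 4665 (chr5:21767845-21768824, 980 bp) was in intron 2, 82.2 kb downstream of the start site, and had a GC content of 44.8%. Peak 4664 (chr5:21598634-21601647) was in intron 10, 250.4 kb downstream. At 3014 bp the latter was the widest of the 37 member peaks, and only 28 peaks of the series were wider, although its GC content of 39.8% was slightly below the 41.0% of its window. In the gene body the 2 peaks stood against 1.19 predicted (1.68 times, p = 0.335 in the exact binomial test, adjusted p = 1). No listed peak lay upstream of the start site within the window, and the closest on that side was 527.9 kb away. The sequences show both intronic sites, with 2 T-box matches and 1 E-box match in intron 2 and a homeodomain match in intron 10.
Reln peak 4665, chr5:21768185-21768484, plus strand of mm9: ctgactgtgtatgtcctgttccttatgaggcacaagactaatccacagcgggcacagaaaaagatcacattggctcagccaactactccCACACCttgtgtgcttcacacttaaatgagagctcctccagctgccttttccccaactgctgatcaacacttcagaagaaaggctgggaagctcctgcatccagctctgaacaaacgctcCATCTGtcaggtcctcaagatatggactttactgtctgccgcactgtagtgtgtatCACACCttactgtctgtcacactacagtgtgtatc
Reln peak 4664, chr5:21599991-21600290, plus strand of mm9: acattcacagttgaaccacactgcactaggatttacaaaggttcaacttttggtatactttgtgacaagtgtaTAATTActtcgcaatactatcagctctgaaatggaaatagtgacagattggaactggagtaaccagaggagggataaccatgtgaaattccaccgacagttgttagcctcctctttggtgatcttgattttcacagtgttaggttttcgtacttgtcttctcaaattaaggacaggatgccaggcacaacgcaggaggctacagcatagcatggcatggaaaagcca

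Vldlr and Lrp8 encode the receptors for Reelin, lipoprotein receptors that bind Dab1 through their cytoplasmic tails. They differed in where their peaks lay. The peaks of Vldlr were all outside the gene and at least 150.3 kb from its start site, whereas the 2 peaks of Lrp8 were within 62.0 kb.

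Vldlr (ENSMUSG00000024924, plus strand, chr19:27290974-27328721, 37.7 kb) had 4 peaks against 2.59 predicted (1.54 times, p = 0.262 in the exact binomial test, adjusted p = 1), a number reached by 24.9% of protein-coding genes. The density of 4 per Mb had an exact Poisson 95% interval of 1.09 to 10.2. Peaks 3090, 3091 and 3092 were 447.3, 372.0 and 150.3 kb upstream, and peak 3093 was 364.5 kb downstream. Of these, peak 3090 lay in intron 28 of the neighbouring gene Smarca2, a chromatin remodelling ATPase. Only peak 3092 (chr19:27141018-27142042, 1025 bp) had the Vldlr start as its nearest protein-coding start site. The widest, peak 3091 (chr19:26919125-26920569), was 1445 bp. Peak 3092 held 1 Nfi match in its middle.
Vldlr peak 3092, chr19:27141381-27141680, plus strand of mm9: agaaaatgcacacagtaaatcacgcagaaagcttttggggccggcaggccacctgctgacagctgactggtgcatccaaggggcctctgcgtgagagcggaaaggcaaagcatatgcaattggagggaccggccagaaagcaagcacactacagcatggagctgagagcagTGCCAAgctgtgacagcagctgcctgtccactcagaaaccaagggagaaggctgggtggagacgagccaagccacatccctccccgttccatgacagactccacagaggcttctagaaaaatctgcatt

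Lrp8 (ENSMUSG00000028613, plus strand, chr4:107474866-107549445, 74.6 kb) had 2 peaks in its window (0.772 times the prediction, adjusted p = 1, exact binomial test). Peak 4448 (1413 bp) was in intron 2, 15.4 kb downstream of the start. It was the only peak in the gene body, against 0.193 predicted (5.18 times, p = 0.176, exact binomial test). Peak 4447 (chr4:107412232-107413407, 1176 bp) was 62.0 kb upstream, between genes and slightly nearer the start of Dmrtb1, at 56.0 kb. Both were GC-rich for this series, at 54.8% and 56.0%, where the window had 47.6%.

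Dab1 encodes the adaptor that is phosphorylated when Reelin binds its receptors. Of the members it is the longest gene (ENSMUSG00000028519, plus strand, chr4:103291964-104417449, 1125.5 kb, 17 exons in the transcript used), and it held the most peaks in a gene body. All 9 peaks of its window lay in the gene, each in an intron of at least 1 of its 13 transcripts. The 13 transcripts begin at 9 different sites, and the transcript with the longest coding sequence starts at position 104040176, far inside the gene. Relative to that start, 7 peaks were upstream and 2 downstream.

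The window of Dab1, 1.25 Mb with the gene body added, was predicted to hold 3.23 peaks, so that 9 made 2.78 times (p = 0.00609, adjusted p = 0.101, exact binomial test, one-sided). In the body the 9 stood against 2.92 predicted (3.09 times, p = 0.00316, adjusted p = 0.567, same exact test). Neither passed after adjustment. At least 9 peaks were found at 4.11% of protein-coding genes, and the density of 7.21 per Mb had an exact Poisson 95% interval of 3.30 to 13.7. With 1 Mb on either side of the start the window held 13 peaks (2.51 times, adjusted p = 0.0396, exact binomial test), and Dab1 was then called. Over the other 10 alternatives its adjusted p ranged from 0.0866 to 1.

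Peaks 4431 (chr4:103941830-103943485, 1656 bp) and 4432 (chr4:103975400-103976440, 1041 bp) were closest upstream of this start, at 97.5 and 64.3 kb, with midpoints 33.3 kb apart. Peak 4433, 72.2 kb downstream in intron 1 (111.4 kb long), was the narrowest of all member peaks at 646 bp. Peak 4434 (830 bp) was in intron 13, 356.8 kb downstream. The 5 others were between 253.9 and 730.9 kb upstream and had widths of 863 to 1229 bp. The Dab1 peaks were thus scattered along the gene, and 5 of the 9 were narrower than the series' median of 1017 bp. Their GC content ran from 38.8% in peak 4431, the lowest of the 37, to 51.1%. With 1 start taken per gene, the nearest protein-coding start site was that of Dab1 for only 1 of the 9. It belonged to a gene model without a full name, Gm10304 or Gm10963, for 7 peaks, and to the complement gene C8b for 1. Peak 4426, 730.9 kb upstream of the Dab1 start used, was 17.0 kb from the start of another Dab1 transcript. Peak 4432, nearest the start site, held an Nfi and a homeodomain match, and peak 4431, the widest in the gene, an E-box match.
Dab1 peak 4432, chr4:103975771-103976070, plus strand of mm9: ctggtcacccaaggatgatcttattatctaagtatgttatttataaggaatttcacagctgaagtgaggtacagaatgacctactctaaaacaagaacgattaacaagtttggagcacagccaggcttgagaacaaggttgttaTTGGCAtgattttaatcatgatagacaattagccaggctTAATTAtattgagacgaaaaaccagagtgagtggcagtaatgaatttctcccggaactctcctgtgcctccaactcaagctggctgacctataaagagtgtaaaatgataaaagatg
Dab1 peak 4431, chr4:103942508-103942807, plus strand of mm9: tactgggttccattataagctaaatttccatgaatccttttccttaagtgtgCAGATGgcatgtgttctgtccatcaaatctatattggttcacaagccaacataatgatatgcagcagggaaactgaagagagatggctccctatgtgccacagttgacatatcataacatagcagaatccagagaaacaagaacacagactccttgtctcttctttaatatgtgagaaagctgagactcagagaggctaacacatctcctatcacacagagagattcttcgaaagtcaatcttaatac

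Fyn encodes the kinase that, together with Src, phosphorylates Dab1. The gene (ENSMUSG00000019843, plus strand, chr10:39088661-39285187, 196.5 kb) had 7 peaks against 2.59 predicted (2.70 times, p = 0.0169, adjusted p = 0.197, exact binomial test, one-sided), a number reached by 8.63% of protein-coding genes. The density of 7 per Mb had an exact Poisson 95% interval of 2.81 to 14.4. Its gene body held 3 peaks where 0.509 were predicted (5.89 times, p = 0.0151, adjusted p = 1, same exact test). Neither count passed the adjusted threshold, and over the 11 alternatives the lowest adjusted p for the window was 0.0697.

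All 7 peaks lay within 290.2 kb of the Fyn start. On the upstream side, peaks 525, 526 and 527 were 198.1, 78.2 and 48.5 kb away. Inside the gene, peaks 528 (990 bp), 529 (833 bp) and 530 were in introns 2, 3 and 12. Peak 531 (1868 bp) lay beyond the 3′ end. Wide peaks were common here, since 5 of the 7 measured 1526 bp or more, where the median of the series was 1017 bp. The widest, peak 530 (chr10:39260320-39262599), measured 2280 bp and was wider than 97.8% of all peaks. The nearest protein-coding start, with 1 start taken per gene, was that of Fyn for 3 peaks, Traf3ip2 for 3 and Wisp3 for 1. Other annotated Fyn transcripts start closer to peaks 529 and 530, at 9.24 and 8.38 kb. The Traf3ip2 start was 110.4 and 71.3 kb from these 2 peaks. Peak 525, the one nearest Wisp3, held 51 CpG dinucleotides, or 32.6 per kb, more than 97.0% of peaks. Peak 527 (chr10:39040255-39041902, 1648 bp), nearest the start site, had 5 motif matches in its middle, the most of the sequences printed here, namely 2 E-box, 2 Nfi and 1 T-box. Peak 530 had 1 T-box and 2 E-box matches.
Fyn peak 527, chr10:39040929-39041228, plus strand of mm9: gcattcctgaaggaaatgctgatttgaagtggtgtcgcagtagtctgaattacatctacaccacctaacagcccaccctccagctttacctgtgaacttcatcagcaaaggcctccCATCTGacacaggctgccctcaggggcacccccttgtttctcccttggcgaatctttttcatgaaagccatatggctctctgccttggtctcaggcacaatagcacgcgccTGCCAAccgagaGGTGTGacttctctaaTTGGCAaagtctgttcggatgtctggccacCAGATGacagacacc
Fyn peak 530, chr10:39261310-39261609, plus strand of mm9: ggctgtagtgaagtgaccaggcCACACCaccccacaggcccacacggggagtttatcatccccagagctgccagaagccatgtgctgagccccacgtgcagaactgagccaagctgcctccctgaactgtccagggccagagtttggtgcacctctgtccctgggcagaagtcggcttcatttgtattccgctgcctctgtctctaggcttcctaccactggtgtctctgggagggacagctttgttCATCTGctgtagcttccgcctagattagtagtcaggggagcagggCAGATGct

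Crk and Crkl encode closely related adaptors that bind phosphorylated Dab1 and pass the signal to Rapgef1. Both lay in gene-dense sequence, Crk with 2 peaks in its window and Crkl with 1. Other protein-coding genes had 20 start sites in the Crk window and 34 in that of Crkl, and only 67.2% and 63.5% of the bases there were outside exons and more than 2.5 kb from a start, where the assembly as a whole had 88.7%. The share of each window that could hold a listed peak was therefore smaller than for other members. With the prediction taken from such bases alone, Crk had 1.02 times and Crkl 0.539 times the predicted number. With all assembled bases the values were 0.772 and 0.386. Neither gene was called in either setting, but the test is one-sided for an excess and could not show a low count.

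Crk (ENSMUSG00000017776, plus strand, chr11:75492761-75520410, 27.7 kb, 3 exons) had 2 peaks (0.772 times the prediction, adjusted p = 1, exact binomial test), and both were in other genes. Peak 878 (chr11:75076677-75077499, 823 bp), 415.7 kb upstream, was in intron 1 of Rtn4rl1, a relative of the Nogo receptor, and 13 protein-coding start sites lay between it and Crk. Peak 879 (chr11:75683029-75684220, 1192 bp), 190.9 kb downstream, was in intron 5 of Rph3al, with 2 start sites between. Their GC contents were 54.7% and 55.4%, above the 47.6% of the window. Peak 879 held 2 E-box matches in its middle.
Crk peak 879, chr11:75683475-75683774, plus strand of mm9: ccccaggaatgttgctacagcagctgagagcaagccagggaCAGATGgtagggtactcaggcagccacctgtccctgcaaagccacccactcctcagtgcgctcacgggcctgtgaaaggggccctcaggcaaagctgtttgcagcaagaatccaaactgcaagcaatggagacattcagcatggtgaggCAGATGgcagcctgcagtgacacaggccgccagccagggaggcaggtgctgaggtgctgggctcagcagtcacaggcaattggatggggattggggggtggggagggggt

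Crkl (ENSMUSG00000006134, plus strand, chr16:17452080-17486348, 34.3 kb) had 1 peak (0.386 times the prediction, adjusted p = 1, exact binomial test). The density of 1 per Mb had an exact Poisson 95% interval of 0.0253 to 5.57, and 70.0% of protein-coding genes had at least as many. Peak 2355 (chr16:17921507-17922745, 1239 bp) was 470.0 kb downstream, near the edge of the window, with 19 protein-coding start sites between it and Crkl. It lay 6.19 kb from the start of Slc25a1, the mitochondrial citrate carrier. Its GC content of 56.3% was the highest of the 37, and its 62 CpG dinucleotides exceeded, per kb, those of 98.9% of peaks, with an observed over expected ratio of 0.644. The middle of this peak is shown for its base composition, with 26 CpG dinucleotides and none of the 7 motifs.
Crkl peak 2355, chr16:17921977-17922276, plus strand of mm9: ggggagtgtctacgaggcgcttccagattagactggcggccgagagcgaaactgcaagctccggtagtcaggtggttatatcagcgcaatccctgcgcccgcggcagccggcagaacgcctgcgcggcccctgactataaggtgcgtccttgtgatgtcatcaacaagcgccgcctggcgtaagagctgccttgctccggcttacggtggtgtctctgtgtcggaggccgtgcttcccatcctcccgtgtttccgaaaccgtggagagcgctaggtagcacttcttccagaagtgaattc

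Cdk5r1 encodes p35, the activator of the neuronal kinase Cdk5. The gene (ENSMUSG00000048895, plus strand, chr11:80290548-80294681) is the shortest member, 4.13 kb with 1 exon, and had the most peaks in its window. The 10 peaks stood against 2.59 predicted (3.86 times, p = 0.000364, adjusted p = 0.0131, exact binomial test, one-sided). The density of 10 per Mb had an exact Poisson 95% interval of 4.80 to 18.4, and 2.72% of protein-coding genes had at least as many. The call was lost in 3 of 11 alternatives, over which the adjusted p of this exact test ranged from 0.000190 to 0.192. Its adjusted p was 0.0544 with the density of chromosome 11 (3.27 peaks per Mb) in place of that of the assembly, 0.192 with only the wider peaks counted (5 of the 10) and 0.150 with a domain that ends at the neighbouring genes (5 of the 10).

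All 10 peaks of Cdk5r1 lay within 250 kb of its start, 5 on each side. Those upstream formed a tight group between 141.2 and 184.4 kb away. Peak 903 lay between genes 8.25 kb from the start of Rhbdl3, a rhomboid-like protease gene. Peaks 904, 905 and 906 lay in its intron 2 (16.9 kb long), and peak 907 in its intron 6. Peak 905 (chr11:80124596-80126286), at 1691 bp the widest of the 10, and peak 906 had midpoints 4.02 kb apart. Those downstream were more evenly spaced. Peaks 908, 909 and 910 were 12.3, 41.8 and 74.8 kb from the Cdk5r1 start in intron 21 of Myo1d, an unconventional myosin gene, and peaks 911 and 912 were 101.0 and 145.8 kb away in its introns 20 and 16. The nearest protein-coding start was that of Rhbdl3 for the 5 upstream peaks and that of Cdk5r1 for the 5 downstream peaks. Between the upstream peaks and the Cdk5r1 start lay 3 or 4 other protein-coding start sites, and between the downstream peaks and that start 0. The window held 14 other protein-coding start sites. A peak list does not link a site to the gene it acts on. Whether either group belongs to Cdk5r1, Rhbdl3, Myo1d or another gene therefore cannot be told apart here.

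Peak GC contents around Cdk5r1 ran from 41.5% to 53.9%, and widths from 895 to 1691 bp. Peak 908 (chr11:80302420-80303320, 901 bp), whose middle is shown, was the closest of the 37 to a member's start site. It held 1 T-box, 1 Nfi and 1 E-box match, the first pair of which overlap.
Cdk5r1 peak 908, chr11:80302721-80303020, plus strand of mm9: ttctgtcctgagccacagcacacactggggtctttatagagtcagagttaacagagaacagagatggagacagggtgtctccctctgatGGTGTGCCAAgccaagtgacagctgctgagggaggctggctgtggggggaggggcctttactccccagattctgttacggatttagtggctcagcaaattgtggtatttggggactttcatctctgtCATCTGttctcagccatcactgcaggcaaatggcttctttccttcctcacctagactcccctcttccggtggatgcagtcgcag

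Pafah1b1 encodes Lis1, a regulator of dynein that is mutated in human lissencephaly. The gene (ENSMUSG00000020745, minus strand, chr11:74487451-74538172, 50.7 kb) was the only member with 0 peaks in its window, as were 30.0% of protein-coding genes. The exact Poisson 95% interval was 0 to 3.69 peaks per Mb, which includes the 2.59 of the assembly, so a deficit was not detectable at this number of peaks. Its start lay in a stretch of 2177.8 kb without a listed peak, and 167 of 6609 stretches between neighbouring peaks were at least as long. The closest peak was number 878, 538.9 kb away, which was counted for Crk. The starts of Crk and Pafah1b1 are 954.6 kb apart and their windows overlap by 45.4 kb. Of the Pafah1b1 window, 71.2% of bases were outside exons and start regions.

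The counts rest on the reach of the window. Just inside 500 kb were peaks 485.7 kb (Dab1), 470.0 kb (Crkl), 447.3 kb (Vldlr) and 415.7 kb (Crk) from the start. Dab1 peak 4426, at 730.9 kb, was counted only because it lay in the gene body, and without the body Dab1 had 8 peaks. Just outside, the nearest were 527.9 kb from Reln, 533.9 kb from Cdk5r1, 538.9 kb from Pafah1b1, 539.9 kb from Crkl and 573.5 kb from Crk. The farthest counted peaks of Fyn, Lrp8 and Cdk5r1 were well inside, at 290.2, 62.0 and 184.4 kb.

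Considered together, the 37 peaks were distal and intronic or intergenic. The authors' filter had removed sites at exons and near starts from the whole list, so this is no trait of the members. Of the 37, 33 lay more than 50 kb from the member's start site, with a median distance of 165.1 kb, and 20 were upstream and 17 downstream. Windows reach 500 kb on either side, so most of their bases are more than 50 kb from the start. These distances therefore describe the window as much as the peaks. No member peak overlapped an annotated exon, as the filter would lead to, and 15 were inside a member and 12 inside another protein-coding gene. With 1 start taken per gene, the member's own start was the nearest protein-coding start for 11 of the 37. Leaving out genes named only as Gm or Rik models, an alternative chosen after seeing the data, raised this to 18, mainly through Dab1. Both counts leave out the members' other annotated starts, some of which were closer. Reln peak 4664, for example, was 40.3 kb from another Reln start, and 228.7 kb from the Slc26a5 start it was credited to.

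Taken as a set, member peaks were somewhat wide and GC-rich beside the series, though not in every gene. Their median width was 1182 bp (quartiles 935 and 1445) against 1017 bp (860 and 1260) for all peaks, and 23 of 37 reached the median of all. Their median GC content was 48.2%, with a range of 38.8% to 56.3%, against 45.2% for all peaks and 41.8% for the assembly. In 28 peaks it was above the median of all peaks, and in 30 above the GC content of the peak's own window. The share of all peaks above their own window was not computed. Since the series as a whole was richer in GC than the assembly, the count of 30 does not set the members apart. CpG density was close to that of the series, with medians of 11.7 and 11.5 per kb. Taken gene by gene, the medians of Dab1 were below those of the series in both width (975 bp) and GC content (44.6%). Crk was below in width (1007.5 bp) and Reln in GC content (42.3%). Vldlr, Lrp8, Fyn, Crkl and Cdk5r1 were above in both. These are descriptions without a test, because peaks of 1 window share their surroundings.

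**Figure D3:**
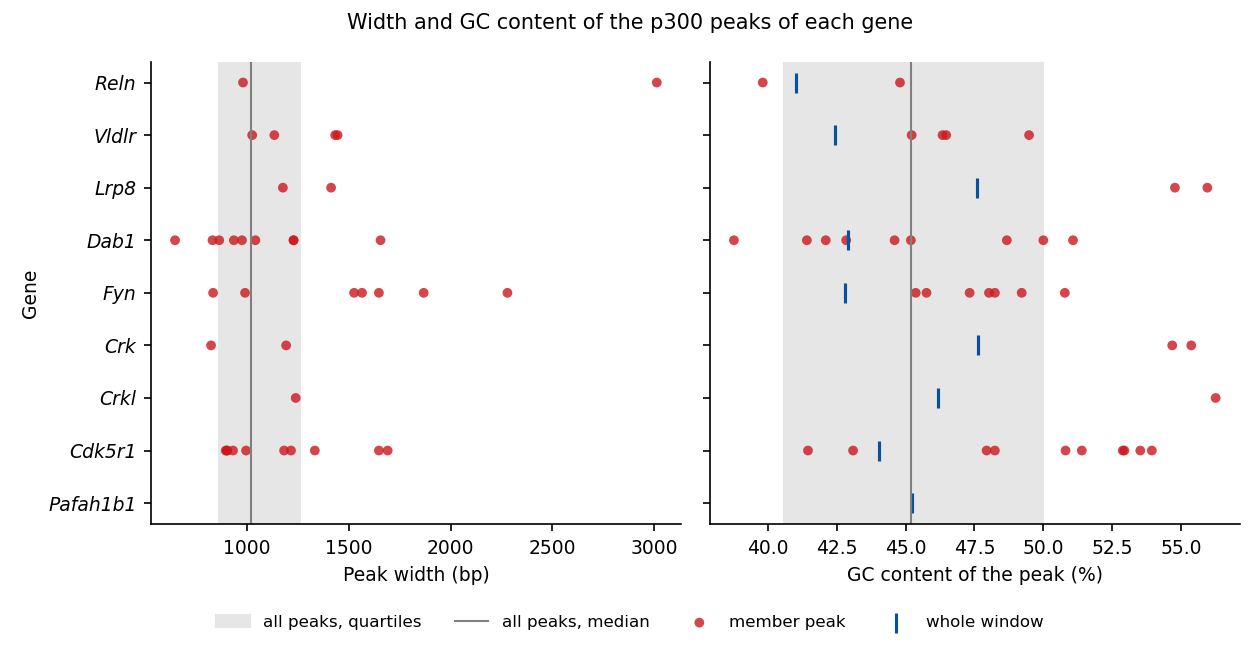
Width in bp (left) and GC content in percent (right) of each member peak, by gene. Red points are peaks, the grey band and line give the quartiles and median of all 6629 peaks, and blue ticks give the GC content of the whole window; the 3014 bp Reln peak is far to the right, and the peaks of Lrp8, Crk and Crkl lie above the upper GC quartile.

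No motif was found in the member peaks at a share that left the counting error around that of the series. In the middle 300 bases, the E-box was found in 16 of 37 peaks (43.2%, with a 95% interval by the exact Clopper-Pearson method of 27.1 to 60.5) and in 45.7% of all peaks. The Nfi motif was found in 11 (29.7%, 15.9 to 47.0) and 31.6%, and the T-box motif in 7 (18.9%, 7.96 to 35.2) and 17.7%. Matches to both the E-box and the T-box motif thus had shares near those of all peaks. The homeodomain core was found in 6 (16.2%, 6.19 to 32.0) and 23.5%, and the Rfx motif in 6 (16.2%) and 13.4%. The Sox motif was found in 3 (8.11%, 1.70 to 21.9) and 18.1%, and the POU motif in 3 (8.11%) and 10.2%. Each of the 7 intervals, which cover counting error only, contained the share of all peaks.

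By gene, Dab1, Fyn and Cdk5r1 had 4 peaks each with an E-box. All Sox matches were in Fyn (2 peaks) and Cdk5r1 (1 peak), and the homeodomain core was in 3 peaks of Cdk5r1, 2 of Dab1 and 1 of Reln. A match to 1 or more of the 7 motifs was found in 31 of 37 peaks (83.8%, 68.0 to 93.8), and in 85.9% of all peaks. Of the 6 peaks without a match, Vldlr and Cdk5r1 had 2 each and Dab1 and Crkl 1 each.

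**Figure D4:**
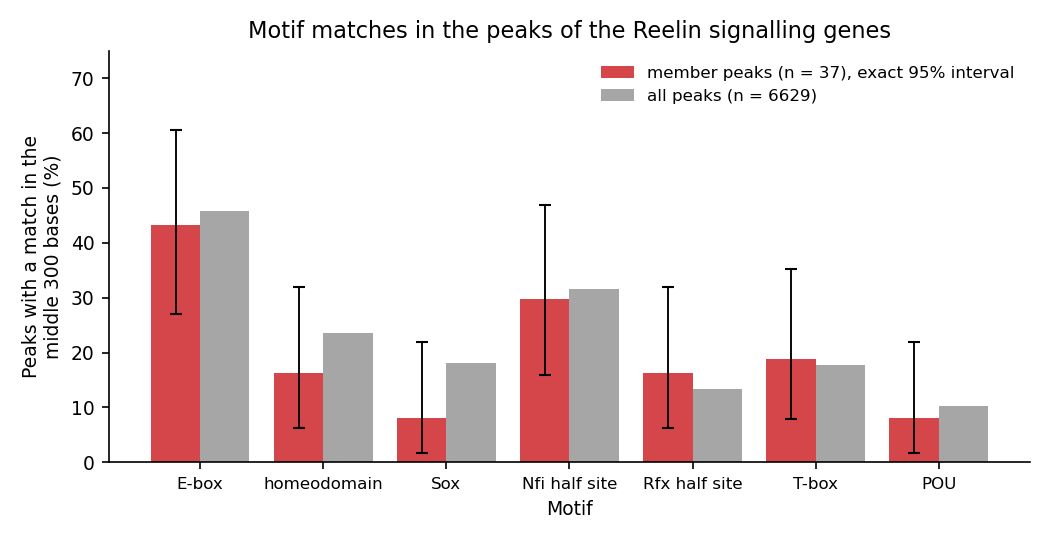
Share of peaks, in percent, whose middle 300 bases hold a match to each of 7 motifs. Red bars are the 37 member peaks with exact 95% intervals and grey bars all 6629 peaks; the intervals contain the grey value for each motif, and the E-box is the most frequent in both.

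Other genes of the pathway were taken from a list of 35 and tested in the same way. Of these 35, 2 passed the window test, where 4.09% of all protein-coding genes did. The 35 had a median of 2 peaks and 0.772 times the prediction, the same medians as the members. Rapgef1, the exchange factor that Crk and Crkl bring to Dab1, had 13 peaks (5.02 times, adjusted p = 0.000364, exact binomial test). Arhgef2, a microtubule-associated exchange factor, had 9 (3.47 times, adjusted p = 0.0354, same exact test). Rapgef1 thus had more peaks than any of the 9 members, whereas its downstream GTPase genes Rap1a and Rap1b had 5 and 0. In the same exact test Akt1, with 8 peaks, had an adjusted p of 0.0869, and Src, the partner kinase of Fyn, Cdk5, the kinase that p35 activates, and Socs7, which takes part in Dab1 degradation, had 7 each (adjusted p = 0.197). At the other end, 7 of the 35 had 0 peaks, where 30.0% of all protein-coding genes had 0. These 7 were Pik3ca, Rap1b, the Lis1 partners Nde1 and Ndel1, Mapt, Cul5 and Grin2a.

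The tissue label was compared with marker genes. Of all protein-coding genes, 4.09% passed the window test, so a list of 5 or 6 genes with 0 passing cannot be told from other genes. Of 10 dorsal pallium genes, 4 passed the window test (Emx1, Pax6, Neurod2 and Fezf2), with a median of 7 peaks and a range of 4 to 12. Of 8 genes that mark Cajal-Retzius cells, the source of Reelin, 3 passed (Lhx1, Ebf2 and Ebf3), with a median of 6 and a range of 0 (Calb2) to 10. Reln and Cxcr4, with 2 peaks each, stood above only Calb2. None of 6 subpallium genes and none of 5 liver genes passed (exact binomial test, adjusted), with medians of 3 and 1 and ranges of 1 to 7 and 0 to 2. At an unadjusted p under 0.05, Dlx1 and Dlx2 of the subpallium, neighbouring genes with 7 peaks each, passed and no liver gene did. Peaks from different cell types of this mixed tissue cannot be told apart.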

How the data were processed

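ChIP-seq libraries of p300 and input came from 1 preparation of E14.5 tissue. The authors aligned 36 bp reads to mm9 with ELAND (unique, up to 2 mismatches), called peaks against the input with MACS (1.4 in the submitters' processing notes, 100 bp shift, no model) and dropped promoter, exon and suspected non-unique sites. The deposited list has positions only, as other values without score or signal. Input data were not analysed here.

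Peak midpoints were counted in windows of 22367 protein-coding genes (GENCODE vM1, NCBIM37, the mm9 sequence) and compared with the number that each window's assembled length predicts, by a binomial test (exact, one-sided, adjusted after Benjamini and Hochberg). Neighbouring genes share peaks, so tests are not independent. Python 3.11.15, numpy 2.4.6, scipy 1.17.1 and matplotlib 3.10.9 were used, and the counting was tested on simulated data. The Lrp8 sequence is not reported here. Map1b was matched through a RefSeq synonym. Peaks named are the nearest, the widest and those in gene bodies (at most the 5 widest). Other peaks and neighbouring genes were named after their values were seen. Members and lists were chosen with earlier results of these data known. Alternatives changed the window, start site, peaks counted, expected count, genes tested and sequence searched.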

Additional observations from a re-analysis of the deposited data

How the results depend on the processing

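No paired analysis was possible because there was 1 library of each kind. Against 37 peaks in the member windows, 68 were counted with 1 Mb on either side, 17 in regulatory domains that end at the neighbouring genes and 23 with only peaks of the median width or more. Member genes called, 1 in the report, were 2 with 1 Mb, and 0 with regulatory domains, with wide peaks only and with the chromosome's own density. Other pathway genes called, 2 in the report, were 1 with 250 kb, with regulatory domains, with peaks under 5 kb apart joined and with wide peaks only, and 4 with the expected count taken from bases outside exons and start sites. Protein-coding genes called by window, 914 in the report, were 466 with 250 kb, 1537 with 1 Mb, 255 with regulatory domains, 516 with joined peaks and 459 with wide peaks only. Those called by gene body, 49 in the report, were 22 with joined peaks and 19 with wide peaks only. By construction, these settings change the window, the peaks counted or, for the chromosome's own density and the bases outside exons and start sites, only the expected count. No other cause was tested. The remaining 36 of 55 values for counts stayed within 1.5 times, including member peaks with a motif (31, then 35 in the middle 500 bases and 37 in whole peaks). Wide peaks stood in for a stricter list, since the deposited one has no score. Without replicates, the error of a single peak is unknown.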
